A study of Mus musculus with 59 samples.

Results

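Faah, Napepld, Dagla, Daglb, Mgll and Abhd6 encode enzymes that make or break down the endocannabinoids, lipid messengers that act on the cannabinoid receptors. They were taken by symbol from the deposited tables, and all of them were found: 6 of 55421 genes and 6 of 33282 entries of the intron table. All 6 passed the minimum mean level of 1 at both levels. Faah was chosen because it had been lower with methylparaben in an earlier analysis of these libraries, so its values in methylparaben against vehicle are given as a description without a test.

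Mammary tumor RNA was sequenced from B6.FVB-Tg(MMTV-PyVT)634Mul/LellJ mice, whose genotype is given as PyMT (+/-). Total RNA came from flash-frozen pieces of excised tumors. In this model the mouse mammary tumor virus promoter drives the polyoma middle T oncogene in mammary epithelium. The groups were methylparaben (20 tumors), propylparaben (20 tumors) and vehicle (19 tumors), and all of them carried the transgene. Parabens are preservatives and esters of para-hydroxybenzoic acid, here with a methyl or a propyl group, and the series asks what long exposure to low levels of them does to mammary cancer. Doses, exposure times and ages are not in the labels, so the esters cannot be set at matched doses. The labels do not say that each library is a separate animal, and the p-values describe only how these samples vary.

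The 2 best-known endocannabinoids are anandamide, an ethanolamide of arachidonic acid, and 2-arachidonoylglycerol (2-AG). Napepld releases anandamide and related ethanolamides from membrane phospholipids, and Faah, a membrane-bound amidase, hydrolyses them to free fatty acid and ethanolamine. Dagla and Daglb are diacylglycerol lipases that form 2-AG, and Mgll, monoacylglycerol lipase, hydrolyses most of it in brain, with a smaller share taken by Abhd6. In fat cells Mgll also completes the breakdown of stored triglyceride.

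The genes are annotated on GRCm38 (GENCODE M21) at chr4:115967145-116017926 on the minus strand (Faah), chr5:21662901-21701396 on the minus strand (Napepld), chr19:10245265-10304877 on the minus strand (Dagla), chr5:143464584-143505942 on the plus strand (Daglb), chr6:88724412-88828360 on the plus strand (Mgll) and chr14:8002902-8056763 on the plus strand (Abhd6). Their merged exons cover 7834 bases in Faah, 3956 in Napepld, 5747 in Dagla, 9567 in Daglb, 5077 in Mgll and 2365 in Abhd6. Of the exon bases of Daglb, 2309 overlap Rac1 on the other strand. Rac1 averaged 168.8 ± 16.5 (SD, n = 59). No source used here gives the strand setting. How reads of that stretch were assigned to the genes is therefore not known. With group means removed, the levels of Daglb and Rac1 correlated at Pearson r = 0.163 over 59 tumors.

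The promoters of Faah and Mgll are shown because these are the members with the largest differences from vehicle. Each window runs from 250 bases before to 50 after the annotated start (RefSeq, GRCm38.p6). The Faah window is chr4:116017875-116018174 on the minus strand, and the Mgll window is chr6:88724162-88724461 on the plus strand, the first of 2 annotated for this gene. Capitals mark matches to GGGCGG (Sp1 box, CCGCCC on the other strand) and CACGTG (E-box).
Faah: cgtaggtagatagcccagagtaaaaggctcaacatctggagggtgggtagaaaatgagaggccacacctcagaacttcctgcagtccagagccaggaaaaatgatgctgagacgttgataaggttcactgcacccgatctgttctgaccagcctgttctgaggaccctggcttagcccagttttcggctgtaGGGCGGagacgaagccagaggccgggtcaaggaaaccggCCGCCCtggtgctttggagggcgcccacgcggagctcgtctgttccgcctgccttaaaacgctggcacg
Mgll: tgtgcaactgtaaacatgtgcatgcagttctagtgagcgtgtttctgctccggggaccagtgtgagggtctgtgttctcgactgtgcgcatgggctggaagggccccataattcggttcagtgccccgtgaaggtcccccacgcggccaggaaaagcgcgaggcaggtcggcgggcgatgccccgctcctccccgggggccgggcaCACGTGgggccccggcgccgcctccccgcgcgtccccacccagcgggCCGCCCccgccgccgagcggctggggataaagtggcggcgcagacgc
Faah carries 2 Sp1 boxes and 16 CG dinucleotides, and Mgll carries 1 Sp1 box, 1 E-box and 32 CG dinucleotides. None of these matches overlap each other. Over 32851 windows of 27025 genes, 35.7% held an Sp1 box and 7.15% held the E-box, and the median window had 7 CG dinucleotides. The nuclear receptor half-site AGGTCA, searched on both strands, was in none of the 7 windows of 5 members, and in 16.3% of all windows. TATAAA was also absent from the 7 windows (13.6% of all windows). CCAAT was found in 1 window of Abhd6 (37.4% of all windows). These matches describe the letters of the windows and not binding.

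Levels are the deposited normalized read counts, which equal the reads of a gene times what a single read is worth in that library, and are called scaled CPM. Libraries held 1166502 to 2032789 reads on genes and 307255 to 1059351 reads in introns. A single read was worth 0.323 to 0.664 scaled CPM at gene level and 0.926 to 3.19 at intron level. Summed markers of luminal epithelium were 1302 to 2139 in methylparaben, 1411 to 2410 in propylparaben and 1257 to 2121 in vehicle tumors, with none of the 8 markers at 0 in any group. Each group's libraries thus held the epithelial transcripts that the tissue label implies. At one end of the first principal component 7 tumors were set apart by rank. They were vehicle replicates 7, 8, 10, 13, 14 and 19 and propylparaben replicate 1, with mitosis scores of 5.63 to 6.32. Mitosis scores of tumors that were kept reached into this range (methylparaben replicate 4 at 5.75). Group means of that score were 4.89 ± 0.38 in methylparaben, 4.98 ± 0.50 in propylparaben and 5.37 ± 0.55 in vehicle (mean log2(value + 1) of 20 genes, SD). The gene-level differences from vehicle of each of the 6 enzymes are therefore also given without these 7 tumors.

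Faah, the enzyme that ends anandamide signaling, was lower in methylparaben tumors than in vehicle tumors, at gene and at intron level. At gene level it ranged over 1.24 to 8.43 scaled CPM in methylparaben (median 3.44), 1.46 to 11.3 in propylparaben (median 3.86) and 0.935 to 19.0 in vehicle (median 6.89). The groups overlapped, and the single lowest tumor was vehicle replicate 4. The means were 3.58 ± 1.88 in methylparaben, 4.44 ± 2.77 in propylparaben and 7.55 ± 4.44 in vehicle (SD). In methylparaben 19 of 20 tumors lay below the vehicle median, and in propylparaben 16 of 20 did. The highest vehicle tumors were replicates 7 (19.0), 19 (14.9) and 14 (13.6), all among the 7 set apart above.

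These levels rest on few reads, with medians of 8, 8.5 and 16 Faah reads per library in methylparaben, propylparaben and vehicle. Counting alone would give coefficients of variation of 35.05%, 31.0% and 23.6% in these groups, against 52.4%, 62.3% and 58.8% observed. The observed spread was larger than counting error in each group.

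**Figure D1:**
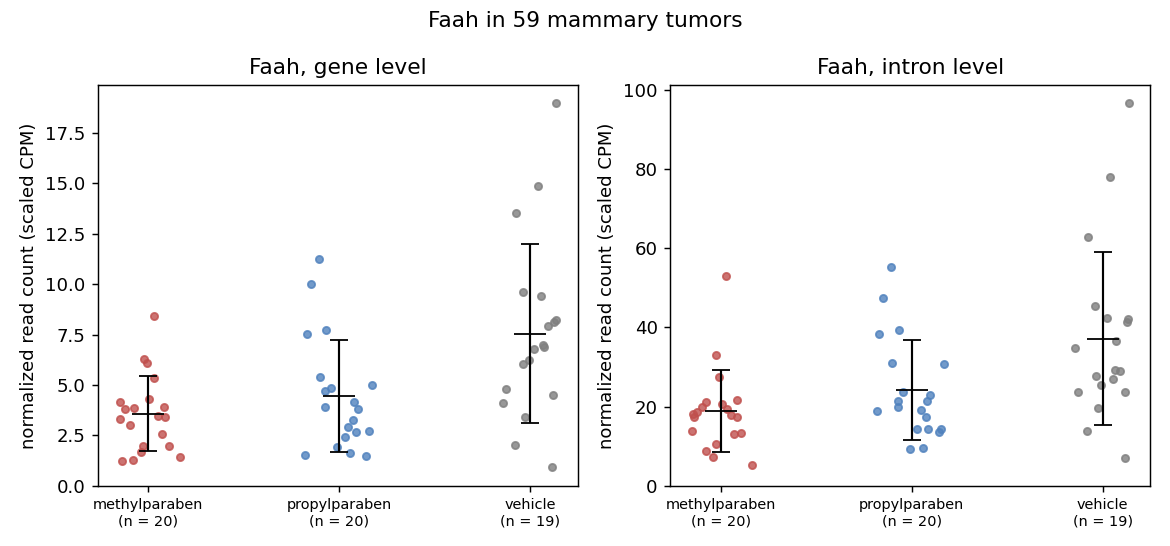
Faah in each of the 59 tumors at gene level and at intron level, in scaled CPM on linear axes, with methylparaben, propylparaben and vehicle tumors as points and the mean ± SD as bars. The groups overlap, and vehicle holds both the highest tumor (19.0 at gene level) and the lowest (0.935).

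On the log2(value + 1) scale Faah differed by -0.82 ± 0.22 (SE) in methylparaben against vehicle. This is the contrast that chose the gene. In propylparaben against vehicle the difference was -0.62 ± 0.22 (95% interval -1.05 to -0.18), which did not pass with limma (unadjusted p = 0.00593, adjusted p = 0.123 over 14487 genes). The 2 contrasts share the vehicle tumors, so the second is not separate support for the first. Between the esters the difference was 0.20 ± 0.21, with an interval of -0.23 to 0.63 (propylparaben minus methylparaben, limma adjusted p = 0.9999). The interval leaves room for a difference in either direction, and this contrast shares the methylparaben tumors with the one that chose the gene.

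Without the 7 tumors Faah averaged 3.58 ± 1.88 in methylparaben (n = 20), 4.60 ± 2.76 in propylparaben (n = 19) and 5.80 ± 2.55 in vehicle (n = 13). The differences from vehicle were then -0.55 for methylparaben and -0.30 for propylparaben (limma adjusted p = 0.861). With the mitosis score as a covariate they were -0.68 and -0.50, and with 6 tissue scores as covariates -0.83 and -0.53. In bulk tissue, fewer cells of a type and less RNA per cell cannot be told apart.

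The intron level of Faah followed the gene level from tumor to tumor. It ranged over 5.28 to 53.1 scaled CPM in methylparaben (median 17.9), 9.16 to 55.2 in propylparaben (median 20.6) and 7.10 to 96.6 in vehicle (median 29.3). Methylparaben replicate 4, propylparaben replicate 15 and vehicle replicate 7 were the highest of their groups at both levels. The intron differences were -0.89 ± 0.23 for methylparaben, as a description, and -0.55 ± 0.23 for propylparaben against vehicle (limma adjusted p = 0.312). With group means removed, gene and intron level correlated at Pearson r = 0.911 and Spearman rho = 0.919 over 59 tumors (two-sided permutation p = 1e-05 for each, the smallest that 100000 resamples give, adjusted p = 3e-05 in a family of 6). Without the 2 farthest tumors r was 0.906, and within methylparaben, propylparaben and vehicle it was 0.855, 0.930 and 0.938. No source used here says whether a read could be counted in both tables. Shared reads would raise this r, so the 2 levels may not be separate measures. Their part was not tested.

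The same relation differed widely among the other members. Mgll reached r = 0.905 (rho = 0.832, permutation p = 1e-05 for each, adjusted p = 3e-05; r = 0.862 without the 2 farthest tumors). Daglb reached r = 0.362 (permutation p = 0.00583, adjusted p = 0.0117; rho = 0.321, p = 0.0150) and 0.330 without the 2 farthest tumors. Napepld (r = 0.228), Abhd6 (0.071) and Dagla (-0.111) did not pass (permutation adjusted p of 0.123, 0.587 and 0.495). Their introns held median counts of 4 to 8.5 reads per library in each group. In methylparaben, propylparaben and vehicle the medians were 9.5, 10.5 and 17 for Faah introns and 9, 11 and 15 for Daglb introns. The part of read number in these relations was not tested.

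Napepld, on the synthesis side of anandamide, was not shown to differ. It ranged over 0.861 to 11.95 scaled CPM in methylparaben (median 4.08), 2.27 to 10.3 in propylparaben (median 4.32) and 1.06 to 13.1 in vehicle (median 5.58). The groups overlapped over almost their whole range. The differences from vehicle were -0.22 ± 0.20 for methylparaben and -0.18 ± 0.20 for propylparaben (limma adjusted p = 0.553 and 0.664). When the 7 tumors were left out they were on the other side of 0, at 0.09 ± 0.22 for methylparaben and 0.17 ± 0.22 for propylparaben (limma adjusted p = 0.954 and 0.935). Its intron level gave -0.26 ± 0.30 and -0.24 ± 0.30 (limma adjusted p = 0.754 and 0.792).

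Napepld was the one enzyme among the other 5 whose level was related to that of Faah, its counterpart in breakdown, after correction. With group means removed, r was 0.389 (permutation p = 0.00328, adjusted p = 0.0267) and rho 0.403 (permutation p = 0.00217, adjusted p = 0.0177) over 59 tumors, in a family of 57 relations among members and marker scores. Without vehicle replicates 7 and 19 r was 0.356. The relation no longer passed without the 7 tumors (r = 0.322 and rho = 0.351, permutation adjusted p = 0.169 and 0.152). Within methylparaben, propylparaben and vehicle r was 0.265, 0.394 and 0.475. Faah against Mgll gave r = -0.247 (permutation adjusted p = 0.243).

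Of the diacylglycerol lipases that form 2-AG, 0 passed with limma in methylparaben or propylparaben against vehicle, beside 1.32% and 0.0276% of all genes. Their levels overlapped across groups. Dagla, the main form in the nervous system, ranged over 5.61 to 16.6 scaled CPM in methylparaben (median 8.93), 4.52 to 13.2 in propylparaben (median 8.49) and 4.47 to 12.9 in vehicle (median 8.53). Its differences from vehicle were 0.09 ± 0.12 for methylparaben and -0.01 ± 0.12 for propylparaben (limma adjusted p = 0.708 and 0.976). Without the 7 tumors they were 0.19 ± 0.13 and 0.07 ± 0.13 for methylparaben and propylparaben (limma adjusted p = 0.847 and 0.955). With all 59 tumors the 95% intervals lay within -0.25 to 0.33, so the data bound a change of Dagla more tightly than one of Faah.

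Daglb, known for 2-AG synthesis in macrophages, ranged over 7.94 to 19.9 scaled CPM in methylparaben (median 14.2), 8.68 to 21.9 in propylparaben (median 14.3) and 8.05 to 28.4 in vehicle (median 13.99). Its gene-level differences from vehicle were -0.08 ± 0.11 and -0.14 ± 0.11 for methylparaben and propylparaben (limma adjusted p = 0.717 and 0.521). The gap was wider without the 7 tumors, at -0.22 ± 0.12 for methylparaben and -0.25 ± 0.12 for propylparaben, and did not pass (limma adjusted p = 0.843 and 0.845). At intron level its medians were 16.8 in methylparaben, 21.4 in propylparaben and 25.3 in vehicle, and 17 of 20 methylparaben tumors lay below the vehicle median. That difference, -0.33 ± 0.17, did not pass (limma adjusted p = 0.382).

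Mgll, which hydrolyses 2-AG, had higher medians in both paraben groups than in vehicle, but no difference passed. It ranged over 34.4 to 557 scaled CPM in methylparaben (median 99.5), 29.9 to 234.6 in propylparaben (median 116) and 37.3 to 142 in vehicle (median 76.1). In methylparaben 18 of 20 tumors and in propylparaben 15 of 20 lay above the vehicle median. The value of 557 belongs to methylparaben replicate 5, whose adipocyte score (9.22) was the highest and mitosis score (3.94) the lowest of its group. Without it the methylparaben mean was 99.7 ± 28.8 (SD, n = 19), against 122.5 ± 106 with it, 115 ± 54.3 in propylparaben and 77.7 ± 27.9 in vehicle.

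The log2 differences of Mgll from vehicle were 0.50 ± 0.21 for methylparaben (95% interval 0.09 to 0.91, limma adjusted p = 0.144) and 0.49 ± 0.21 for propylparaben (0.08 to 0.90, limma adjusted p = 0.188). Between the esters it was -0.01 ± 0.20 (-0.41 to 0.40, propylparaben minus methylparaben). At intron level the differences from vehicle were 0.33 ± 0.17 and 0.48 ± 0.17 for methylparaben and propylparaben (limma adjusted p = 0.402 and 0.264). Without methylparaben replicate 5 the gene-level difference for methylparaben was 0.37. Without the 7 tumors it was 0.28 for methylparaben and 0.30 for propylparaben. With DESeq2 on recovered reads, Mgll passed in methylparaben against vehicle (log2 0.67, adjusted p = 0.0450), and with edgeR's quasi-likelihood test it did not (0.65, adjusted p = 0.0730). Without methylparaben replicate 5, a setting added after the values were seen, neither count test called it (0.37 with DESeq2 and 0.36 with edgeR, adjusted p = 0.220 and 0.251).

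Fat cell markers stood beside Mgll. Summed levels of 10 adipocyte markers were 94.7 to 13218 in methylparaben (median 706), 87.5 to 3336 in propylparaben (median 338) and 53 to 654 in vehicle (median 250), with no marker at 0 throughout a group. All 10 had estimates above 0 in both paraben groups against vehicle, with median log2 differences of 1.28 and 0.92. Over all 14487 genes, 7423 and 7221 had estimates above 0. With limma 0 of the 10 passed, beside 1.32% and 0.0276% of all genes. Unadjusted p-values under 0.05 were held by 9 and 2 of the 10, and by 3206 and 2667 of all genes. With 6 tissue scores, adipocyte included, as covariates, Mgll differed by 0.24 for methylparaben and 0.33 for propylparaben. With the mitosis score alone the values were 0.13 and 0.19.

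**Figure D2:**
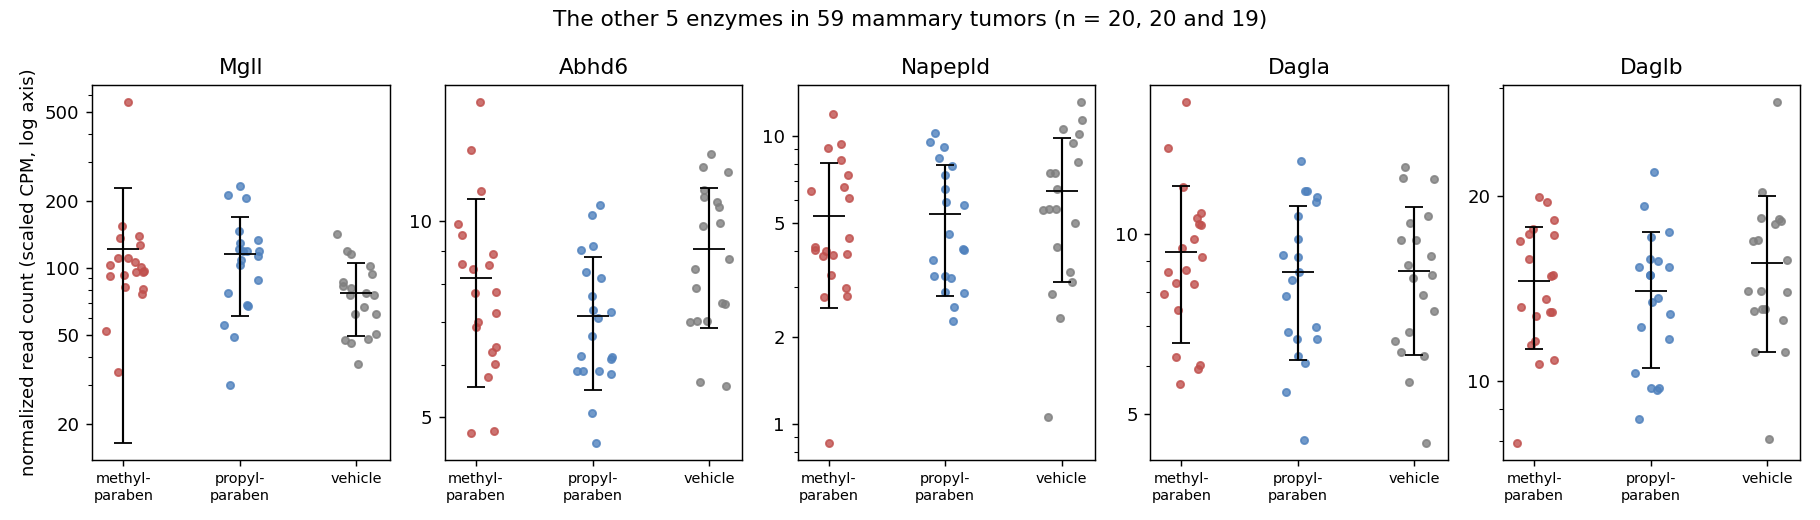
The 5 other enzymes at gene level in each tumor, in scaled CPM on log axes, with methylparaben, propylparaben and vehicle from left to right and the mean ± SD as bars. All groups overlap, and methylparaben replicate 5 stands alone at 557 for Mgll.

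Across tumors, with group means removed, Mgll was related to 3 marker scores by both Pearson's and Spearman's measure. Against the adipocyte score r was 0.645 and rho 0.579 (permutation p = 1e-05 for each, adjusted p = 0.000285), and r was 0.515 without methylparaben replicate 5 and propylparaben replicate 5. Within methylparaben, propylparaben and vehicle it was 0.705, 0.619 and 0.560. Against the mitosis score r was -0.548 and rho -0.529 (permutation p = 1e-05 and 7e-05, adjusted p = 0.000285 and 0.00133), with -0.507, -0.603 and -0.599 within the groups and -0.529 without the 2 farthest tumors. Against basal epithelial markers r was 0.403 and rho 0.573 (permutation p = 0.00168 and 1e-05, adjusted p = 0.0160 and 0.000285), and r was 0.547 without the 2 farthest tumors and 0.309, 0.399 and 0.571 within the groups. In each group Mgll was higher in tumors with higher adipocyte and lower mitosis scores. Without the 7 tumors, Mgll gave r = 0.623 with adipocyte and -0.484 with mitosis markers (permutation adjusted p = 0.00171 and 0.0145), and 0.370 with basal markers, which no longer passed by Pearson's r (0.0788) but did by Spearman's rho (0.533, 0.00342). By Pearson's r 7 of the 57 relations passed with all tumors and 2 without the 7, and by Spearman's rho 9 and 3. The relations that passed by rho alone with all tumors were Mgll with fibroblast markers (rho = 0.368, permutation adjusted p = 0.0408; r = 0.313, 0.0671) and Dagla with mitosis (rho = 0.357, 0.0431; r = 0.324, 0.0671), and neither did without the 7 tumors (rho = 0.247 and 0.267, permutation adjusted p = 0.420 and 0.357).

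Daglb was also related to 3 scores with all 59 tumors, and to none of them without the 7. It gave r = -0.490 and rho = -0.451 with mitosis (permutation p = 9e-05 and 0.00050, adjusted p = 0.00171 and 0.00712), r = 0.478 and rho = 0.444 with macrophage markers (permutation p = 0.00026 and 0.00070, adjusted p = 0.00319 and 0.00798) and r = 0.446 and rho = 0.402 with adipocyte markers (permutation p = 0.00028 and 0.00205, adjusted p = 0.00319 and 0.0177). Without the 2 farthest tumors of each score r was -0.496, 0.472 and 0.396. Without the 7 tumors r was -0.396 with mitosis, 0.381 with macrophage and 0.371 with adipocyte markers (permutation adjusted p = 0.0788 for each), and rho was -0.354, 0.318 and 0.289 (0.152, 0.235 and 0.308). The macrophage relation was 0.50, 0.441 and 0.515 within methylparaben, propylparaben and vehicle, the mitosis relation -0.658, -0.222 and -0.625, and the adipocyte relation 0.563, 0.283 and 0.549. No relation of Faah with a marker score passed in this family: r was 0.206 with mitosis (permutation adjusted p = 0.379), -0.163 with adipocyte (0.445) and -0.260 with macrophage markers (0.278).

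**Figure D3:**
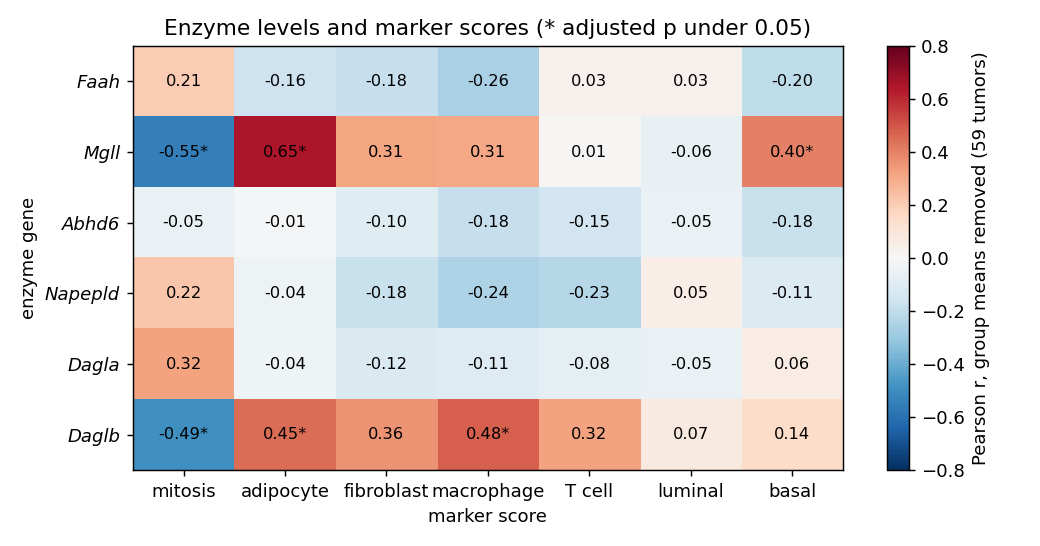
Pearson r of each of the 6 enzymes with 7 marker scores over 59 tumors, group means removed, as colors and printed values, with a star where the permutation adjusted p is under 0.05. Mgll and Daglb carry the strongest values, with the mitosis, adipocyte, macrophage and basal scores, while Faah stays between -0.260 and 0.206.

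Abhd6, which also hydrolyses 2-AG, ranged over 4.72 to 15.3 scaled CPM in methylparaben (median 7.78), 4.56 to 10.6 in propylparaben (median 6.88) and 5.58 to 12.7 in vehicle (median 8.75). In methylparaben 14 of 20 and in propylparaben 16 of 20 tumors lay below the vehicle median. The differences from vehicle were -0.15 ± 0.11 (95% interval -0.37 to 0.07) for methylparaben and -0.30 ± 0.11 (-0.52 to -0.07) for propylparaben (limma adjusted p = 0.444 and 0.148). They were, without the 7 tumors, -0.12 ± 0.12 for methylparaben and -0.28 ± 0.12 for propylparaben (limma adjusted p = 0.874 and 0.845). The intron level gave 0.04 ± 0.20 and 0.16 ± 0.20, on the other side of 0 (limma adjusted p = 0.958 and 0.785).

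With limma, 0 of the 5 members other than Faah passed at gene level in methylparaben against vehicle, where 1.32% of all tested genes did (191 of 14487, with 0.683% higher and 0.635% lower). In propylparaben against vehicle 0 of 6 passed, with 0.0276% of all genes, and between the esters 0 of 6, with 0% of all genes. Unadjusted p-values under 0.05 were held by 1, 3 and 0 of these members, and by 3206, 2667 and 311 of all genes. At intron level 0 members passed in any comparison, and 0% of 14281 introns did. Unadjusted p-values under 0.05 at intron level were held by 0 of 5, 2 of 6 and 0 of 6 members. The matching share of all introns was not counted, so no excess can be read from these numbers. In methylparaben against vehicle DESeq2 called 1 of the 5, Mgll, beside 4.89% of 13082 genes, and edgeR called 0 of the 5, beside 4.04% of 14487 genes.

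**Figure D4:**
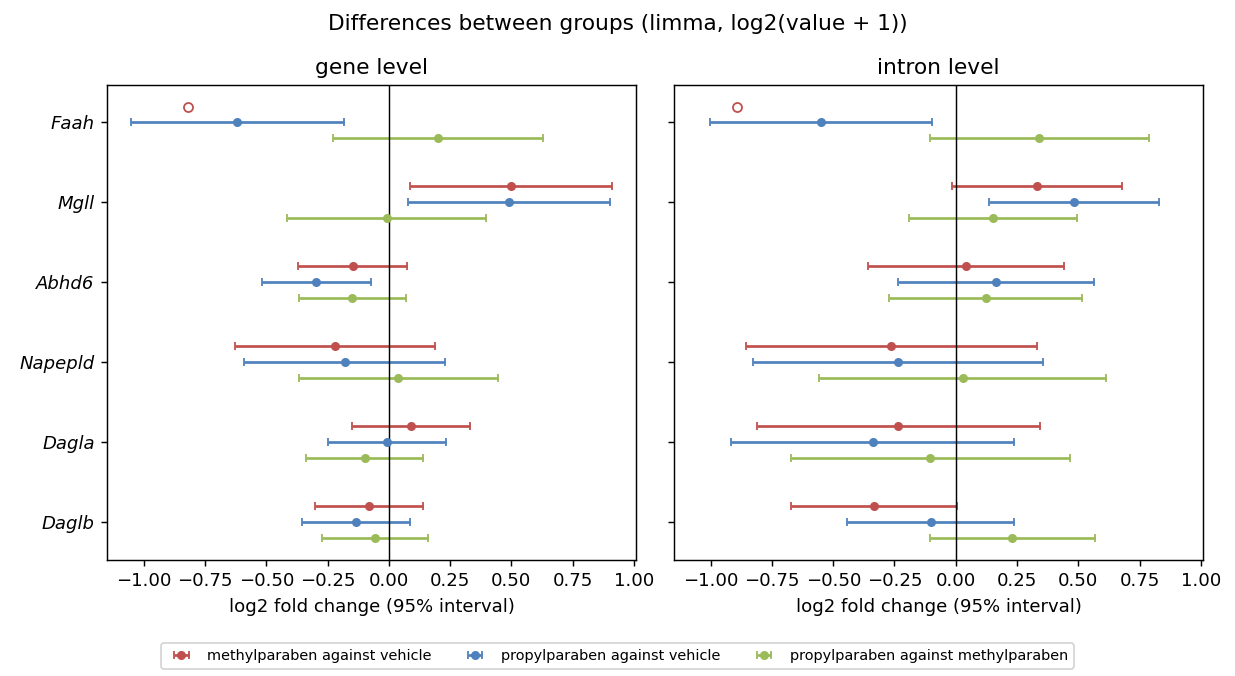
Log2 fold changes of the 6 enzymes with 95% intervals, at gene and intron level, for methylparaben against vehicle, propylparaben against vehicle and propylparaben against methylparaben. Faah in methylparaben against vehicle is an open point without an interval (-0.82 at gene level), and all intervals between the esters cross 0.

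Between the esters, which differ in the length of the alkyl chain, 6 members were compared at gene level, and all had an adjusted p of 0.9999 (limma, over all genes). The differences ran from -0.15 (Abhd6) to 0.20 (Faah), propylparaben minus methylparaben, and each interval included 0. Since the labels give no doses, these values set the groups side by side and do not rank the compounds.

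Levels were also divided by the kilobases of merged exon of all annotated transcripts, which can be longer than the transcripts expressed. Mgll then averaged 20.8 ± 14.3 scaled CPM per kb over the 59 tumors (SD). Abhd6 followed at 3.43 ± 0.97, then Dagla at 1.54 ± 0.44, Daglb at 1.53 ± 0.39, Napepld at 1.44 ± 0.74 and Faah at 0.658 ± 0.455. Mgll was above Abhd6 in 59 of 59 tumors, Abhd6 above Dagla in 58 and Napepld above Faah in 53. Dagla was above Daglb in only 32 and Daglb above Napepld in 35, so the order of these 3 did not hold beyond the spread between tumors. By this measure Mgll was the highest of the 6 and Faah the lowest. Before division by length, Faah averaged 5.15 ± 3.56 and Napepld 5.70 ± 2.91 scaled CPM (SD, n = 59). The gap per kilobase thus rests largely on the exon lengths used.

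The genes whose levels followed Faah most closely over 59 tumors, group means removed, were Dsp (Pearson r = 0.59), which encodes the desmosome protein desmoplakin, the transcription factor gene Sox13 (0.59), the mitochondrial creatine kinase gene Ckmt1 (0.57), the carbonic anhydrase gene Car12 (0.56) and Reep1 (0.55). The lowest were Lgr6, an R-spondin receptor gene (-0.63), Ssr1 (-0.59), Tmed10 (-0.58), Cops7b (-0.57) and Slc35a5 (-0.55). These were picked from 9143 genes with a mean of at least 10, over which r had an SD of 0.169, and the values are a description. They were not even across groups: Ckmt1 gave 0.02 within methylparaben, 0.53 within propylparaben and 0.82 within vehicle, and Ssr1 gave 0.03, -0.75 and -0.75. For Mgll the closest genes were Slc24a3 (0.81) and the acyl-CoA synthetase gene Acsl1 (0.76), with an SD of r of 0.270.

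**Figure D5:**
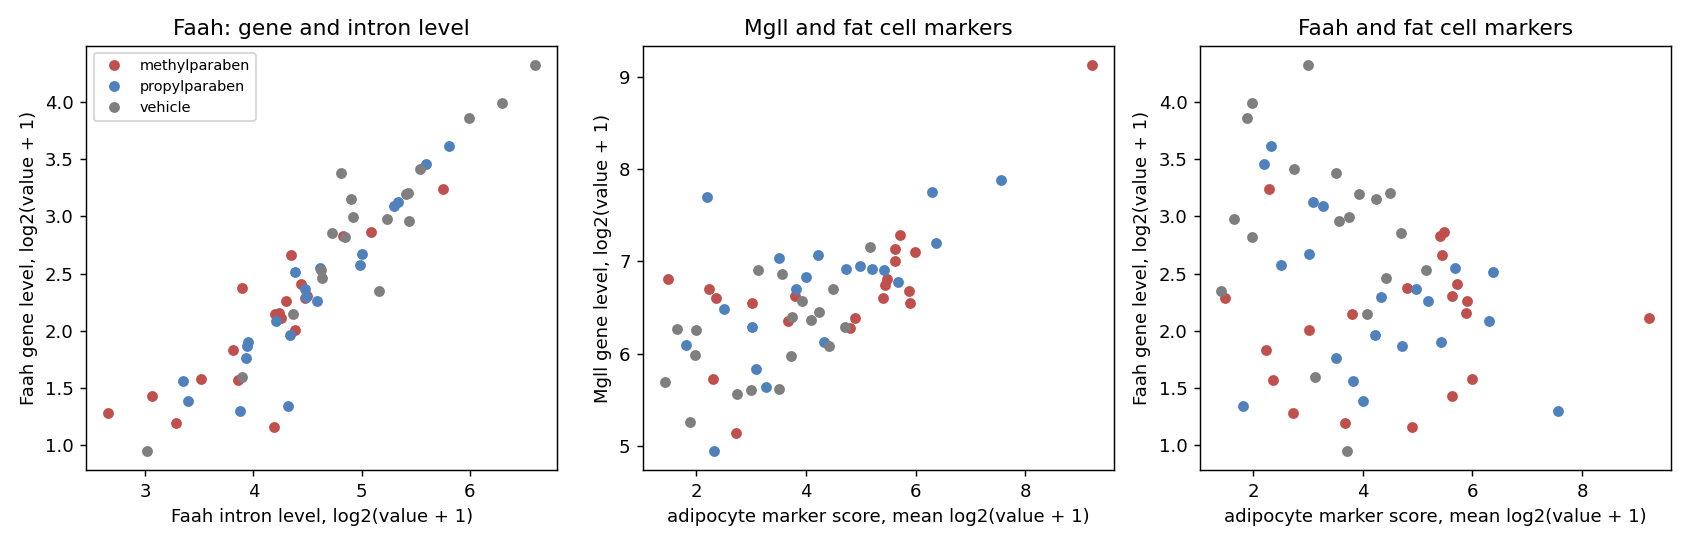
Levels in each tumor as log2(value + 1), colored by group, for Faah gene level against intron level, Mgll against the adipocyte marker score and Faah against the same score. With group means removed, r was 0.911, 0.645 and -0.163, and the points of each group follow one line for Faah gene and intron level and scatter widely for Faah and the score.

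Other genes of the endocannabinoid system were taken from 8 lists, 47 genes in all, of which 38 were tested. The 9 below the minimum mean were Pla2g4e, Plaat5, Cnr2, Gpr55, Gpr18, Gpr119, Trpv1, Alox5 and Fabp7. The comparisons were methylparaben against vehicle, propylparaben against vehicle and between the esters, in this order. Of the 38, 0 passed in any of them with limma (background 1.32%, 0.0276% and 0%). Unadjusted p-values under 0.05 were held by 13, 4 and 2 of the 38, and by 3206, 2667 and 311 of all 14487 genes. The median log2 difference of the 38 was 0.18, 0.10 and -0.05, beside 0.01, 0.00 and -0.01 over all genes. Estimates were above 0 for 30, 26 and 9 of the 38, and for 7423, 7221 and 6758 of all 14487 genes. In methylparaben against vehicle edgeR called 4 of the 38, beside 4.04% of all genes, and DESeq2 called 2, beside 4.89%. For the 4 called by edgeR, methylparaben replicate 5 held the highest methylparaben value of each. That tumor also had the highest adipocyte score (9.22, group median 5.15) and muscle score (9.65, group median 4.46) of its group. Ces1d was at 252 there and at 13.1 or less in the other 19 methylparaben tumors, Lipe at 302 and 31.7 or less, Ppara at 103 and 6.36 or less, and Pparg at 60.4 and 7.74 or less. Without that tumor edgeR called 0 of the 38.

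By role, in methylparaben against vehicle, estimates were above 0 for 6 of 8 tested genes of anandamide synthesis. So were those of 2 of 2 other genes of ethanolamide breakdown, the lower at 0.004. Estimates were also above 0 for 5 of 6 genes of acylglycerol breakdown and 3 of 6 phospholipases C that supply diacylglycerol. The same held for 4 of 4 receptors, 3 of 3 receptor partners, 4 of 5 oxygenases and 3 of 4 lipid carriers. Over all genes, 7423 of 14487 estimates were above 0. Cnr1, the cannabinoid receptor of nerve cells, was near the limit of detection at 0 to 8.63 scaled CPM in methylparaben (median 1.36), 0 to 4.01 in propylparaben (median 1.48) and 0 to 1.87 in vehicle (median 1.07). Its difference in methylparaben was 0.35 (limma adjusted p = 0.316).

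The smallest p in methylparaben against vehicle belonged to Pparg, the nuclear receptor of fat cell differentiation, which also binds endocannabinoid-derived lipids. It ranged over 0.86 to 60.4 scaled CPM in methylparaben (median 2.78), 0 to 10.6 in propylparaben (median 2.54) and 0.39 to 4.47 in vehicle (median 1.36). The differences from vehicle were 0.89 ± 0.26 and 0.45 ± 0.26 for methylparaben and propylparaben (limma adjusted p = 0.0537 and 0.342). The adipocyte marker sums given above moved with the same groups. With 6 tissue scores, adipocyte included, as covariates, 0 of 14487 genes passed in methylparaben against vehicle with limma, Pparg included. The part of fat cells in the Pparg difference was not tested.

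Hspa2, a heat shock protein listed among the carriers of anandamide inside cells, followed. It ranged over 15.3 to 51.7 scaled CPM in methylparaben (median 39.2), 24.1 to 51.4 in propylparaben (median 34.99) and 12.95 to 56.1 in vehicle (median 25.6). Its differences from vehicle were 0.42 ± 0.13 and 0.39 ± 0.13 for methylparaben and propylparaben (limma adjusted p = 0.0605 and 0.105). Naaa, a lysosomal amidase that breaks down ethanolamides as Faah does, had medians of 27.4, 22.5 and 18.2 in methylparaben, propylparaben and vehicle. Its differences were 0.51 ± 0.18 and 0.23 ± 0.18 for methylparaben and propylparaben (limma adjusted p = 0.0893 and 0.498), on the other side of 0 from Faah.

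In propylparaben against vehicle the next smallest p after Hspa2 were those of Gdpd1, a lysophospholipase D of the alternative route to anandamide (-0.33 ± 0.11, limma adjusted p = 0.106), and Fabp5, a fatty acid binding protein that carries anandamide (-0.46 ± 0.21, limma adjusted p = 0.212). Gdpd1 had medians of 49.2, 42.2 and 54.1 scaled CPM in methylparaben, propylparaben and vehicle, and Fabp5 27.2, 25.8 and 34.5. Between the esters the smallest were Alox15 (-0.35), Gdpd3 (-0.36) and Abhd12 (0.13), all at an adjusted p of 0.9999 with limma.

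Markers of other cell types that a tumor piece can hold were counted in the same fit. In methylparaben and propylparaben against vehicle the median log2 differences were 0.59 and 0.60 for 8 fibroblast markers, 0.55 and 0.44 for 7 basal epithelial markers, 0.22 and 0.24 for 8 macrophage markers, 0.27 and 0.28 for 6 endothelial markers, 1.21 and 0.81 for 6 muscle markers and 0.06 and 0.06 for 8 luminal markers, and 0 of these passed with limma in any comparison. Of 4 tested T cell and 2 tested B cell markers, 0 passed as well. Over all genes 1.32%, 0.0276% and 0% passed in methylparaben against vehicle, propylparaben against vehicle and between the esters. Of 6 nerve and glia markers, 1 passed in methylparaben against vehicle (Mbp, 0.42, limma adjusted p = 0.0301), beside 1.32% of all genes. The 6 estimates ran from -0.42 to 0.45, with 4 above 0, 2 below and a median of 0.23. All 20 mitosis genes had estimates below 0 in methylparaben and in propylparaben against vehicle (medians -0.48 and -0.40). Over all 14487 genes, 7064 and 7266 did. Unadjusted p-values under 0.05 (limma) were held by 20 and 14 of the 20, and by 3206 and 2667 of all genes. In methylparaben against vehicle 2 passed, beside 0.635% of all genes called lower. These were Ccna2 (lower by 0.49) and Ccnb1 (by 0.63, limma adjusted p = 0.0456 and 0.0492). In propylparaben against vehicle 0 passed, beside 0.0276% of all genes. Mitosis marker sums were 439 to 1540 in methylparaben (median 794), 501 to 1942 in propylparaben (median 895) and 539 to 2164 in vehicle (median 1056), with no marker at 0 throughout a group.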

How the data were processed

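The submitters' processing notes name bcl2fastq 2.20.0.422, STAR 2.6.1d and HTSeq 0.10.0 as tools and GRCm38 as the build. No source used here gives the strand setting or how gene and intron reads were defined. The deposited values are a signal, called normalized counts per the labels, and 100% of them came out as whole reads (within 1e-06) once divided by what a single read was worth in their library. DESeq2 and edgeR used these recovered counts. GENCODE M21 gave positions for 55154 of 55421 gene identifiers.

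The main test was limma 3.58.1 with trend (R 4.3.3, data.table package version 1.17.8) on log2(value + 1). A single fit of the 59 tumors held a mean for each group, for features with a mean of at least 1 (14487 genes and 14281 introns). A call is a Benjamini-Hochberg adjusted p under 0.05 over all of them. The median SE of a log2 difference from vehicle was 0.12 for genes and 0.21 for introns. Relations used two-sided permutation tests of 100000 resamples within groups in SciPy 1.17.1 with NumPy 2.4.6 and pandas 2.3.3 (Python 3.11.15). Depth is given in the report. Intron values were tested in their own fit. The procedure was tested on simulated data.

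Named are the 6 members, the pathway genes that passed, up to 3 per comparison with the smallest p that did not, and the genes most like Faah (5 highest and 5 lowest) and Mgll (3 highest, of which 1 is not reported here). Members and lists were chosen with earlier results of these data known. Genes named beyond this rule (Cnr1, Rac1, and the mitosis and nerve markers that passed) were chosen after their values were seen. Promoters were matched by symbol for 5 of 6 members, not for Dagla. Alternatives were other pseudocounts, filters, scaling, covariates, tumors left out, and count tests with edgeR 4.0.16 and DESeq2 1.42.0.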

Additional observations from a re-analysis of the deposited data

How the results depend on the processing

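With DESeq2 the members called higher in methylparaben against vehicle at gene level were 1 (Mgll), not 0. Count tests without methylparaben replicate 5 were added after the data were seen. In DESeq2 this gave 0 members for methylparaben and 1 (Mgll, 0.59, adjusted p = 0.0438, among 314 of 11678 genes called) for propylparaben against vehicle. In methylparaben against vehicle, pathway genes called higher were 0 with limma and 1 with a mean of at least 10 (Hspa2). With the tumor number as covariate 1 was called (Pparg). The count was 4 with edgeR (Ces1d, Lipe, Ppara and Pparg) and 2 with DESeq2 (Hspa2 and Pparg). Without methylparaben replicate 5, edgeR called 0 and DESeq2 called 1 (Pparg). With each tumor left out limma called 0 to 3, the 3 without vehicle replicate 5. In propylparaben against vehicle the pathway genes called higher were 0 to 1, the 1 (Hspa2) without vehicle replicate 5. By Pearson's r 7 of 57 relations passed, and 2 without the 7 tumors set apart by rank, and by Spearman's rho 9 and 3. No called value changed sign. Among differences that did not pass, those of Napepld from vehicle at gene level turned above 0 without the 7 tumors.

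Faah differed from vehicle by -0.93 (without vehicle replicate 4) to -0.74 (without vehicle replicate 7) in methylparaben, and by -0.73 to -0.54 in propylparaben (limma adjusted p = 0.0689 to 0.210). With a pseudocount of 10 these were -0.34 and -0.26, with 0.5 they were -0.90 and -0.67, and with DESeq2 -1.07 and -0.75. Mgll in methylparaben ranged over 0.37 (without methylparaben replicate 5) to 0.58. Over all genes, methylparaben against vehicle gave 191 calls with limma, 585 with edgeR, 640 with DESeq2, 334 with a mean of at least 10, 25 with no filter, 2 with only both groups in the fit, 0 with 6 tissue scores, the mitosis score or without the 7 tumors, 145 with edgeR and 316 with DESeq2 without methylparaben replicate 5, and 1 (without vehicle replicate 8) to 932 (without vehicle replicate 5) with each tumor left out. Propylparaben against vehicle gave 4 with limma, 31 with edgeR, 231 with DESeq2, 16 with a mean of at least 10 and 1 to 424 with each tumor left out. The causes were not tested.

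No paired analysis was possible because replicate numbers were given in accession order and tie no tumor to one of another group. Count tests of introns were not run. A mean of at least 10 gave no value for members below it, Faah among them.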

Other observations

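Among 13 tested genes within 300 kb of Faah, r with Faah over 59 tumors (group means removed) ran from -0.29 (Atpaf1) to 0.32 (Pik3r3). These genes were looked up after the Faah values were seen. The nearest, Nsun4, lies 14916 bases away and had r = 0.03, with differences of -0.16 and -0.15 in methylparaben and propylparaben against vehicle (limma adjusted p = 0.371 and 0.457). Pik3r3 encodes a regulatory subunit of phosphoinositide 3-kinase and lies 203692 bases away. It differed by -0.71 in methylparaben and -0.67 in propylparaben against vehicle (limma adjusted p = 0.0460 and 0.0774). In methylparaben against vehicle 0.635% of all genes were called lower. Without the 7 tumors, with the mitosis score or with 6 tissue scores as covariates, 0 of 14487 genes passed there, Pik3r3 included.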
